A study of Homo sapiens with 4 samples.

Results

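The HOX gene clusters A to D were examined in K562 cells for regions of chromatin that gained accessibility after exposure to an anthracycline. K562 is an established human line from a chronic myelogenous leukaemia. The members were the regions, from any of 3 deposited lists of gained regions, that overlapped the HOXA window on chromosome 7, the HOXB window on chromosome 17, the HOXC window on chromosome 12 or the HOXD window on chromosome 2 (GRCh37) by at least 1 bp. The HOXB window was 210 kb long and each of the others 120 kb. They numbered 56 of the 100205 regions in the union of the lists, and together the windows hold 38 HOX genes of the member list. These are 10 HOXA, 10 HOXB, 9 HOXC and 9 HOXD genes.

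The assay was ATAC-seq, in which a transposase inserts sequencing adapters into DNA that is not covered by nucleosomes. The study had 4 groups of K562 cells, with no genetic change named in the labels. Untreated cells were the control, and the others received doxorubicin (Doxo) at 10 µM, diMe-Doxo at 10 µM or aclarubicin (Acla) at 20 µM for 4 h. Doxo and Acla are anthracyclines, which intercalate into DNA, and diMe-Doxo is doxorubicin with methyl groups on the amine of its sugar. The series, by its title, asks how DNA damage and chromatin damage by doxorubicin can be separated. Each list compared 2 treated libraries with 2 control libraries, and all 3 lists used the same controls, so their counts and folds are not independent of each other. The labels give 1 sample per group and do not say whether its 2 libraries came from separate cultures, so p-values measure only the spread between libraries, which may be technical. All libraries come from 1 cell line.

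HOX genes encode homeodomain transcription factors that set position along the body axis and, within the blood lineage, act in stem and progenitor cells. In each cluster the genes lie side by side in the order of their paralogue groups, with low numbers expressed early and towards the head and high numbers late and towards the tail. Where HOX genes are silent, Polycomb complexes commonly cover the CpG-rich DNA of the clusters with repressive histone marks. A window of gained signal in a bulk sample does not separate a few cells with open chromatin from many cells with slightly more open chromatin.

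The DNA at HOX gene starts is shown first, because CpG-rich starts are a feature that many cluster members share. RefSeq (GRCh38.p14) promoter entries were found for 20 of the 38 genes, 27 entries in all. HOXA has 16 of the entries, HOXD 8, HOXC 2, which are the same stretch of DNA, and HOXB 1, so these values hardly cover HOXB and HOXC. The 16 HOXA entries come from 9 genes, HOXA3 having the most, so entries are not separate genes. The 250 bases before the start held a median of 19 CpG dinucleotides in HOX entries and 11 over all 35116 promoter entries. At least 10 CpG were present in 77.8% of HOX entries (21 of 27) and in 52.2% of all entries. The TATA-box letters TATAAA, searched on both strands, occurred in 5 HOX entries (18.5%) and in 10.7% of all entries. Paralogue groups 4 and 13 of HOXA and HOXD, the clusters with the most gained regions, are printed 5′ to 3′ on the gene's strand with each CG in capitals.
HOXA4: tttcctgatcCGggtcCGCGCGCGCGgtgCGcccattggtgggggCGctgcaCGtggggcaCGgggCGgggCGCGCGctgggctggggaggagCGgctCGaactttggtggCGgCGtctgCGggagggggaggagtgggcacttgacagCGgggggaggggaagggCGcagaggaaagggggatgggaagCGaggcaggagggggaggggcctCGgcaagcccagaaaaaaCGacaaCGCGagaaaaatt
HOXA13: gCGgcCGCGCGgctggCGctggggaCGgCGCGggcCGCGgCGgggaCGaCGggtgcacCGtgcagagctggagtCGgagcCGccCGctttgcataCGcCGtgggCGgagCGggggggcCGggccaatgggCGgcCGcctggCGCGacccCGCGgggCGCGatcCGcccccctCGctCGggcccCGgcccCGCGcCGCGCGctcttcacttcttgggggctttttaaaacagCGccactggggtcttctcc
HOXD4: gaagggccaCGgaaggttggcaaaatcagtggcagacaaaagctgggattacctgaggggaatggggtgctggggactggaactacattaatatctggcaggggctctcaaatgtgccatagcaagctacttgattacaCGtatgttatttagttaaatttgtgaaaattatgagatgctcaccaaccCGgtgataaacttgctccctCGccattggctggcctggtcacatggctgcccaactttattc
HOXD13: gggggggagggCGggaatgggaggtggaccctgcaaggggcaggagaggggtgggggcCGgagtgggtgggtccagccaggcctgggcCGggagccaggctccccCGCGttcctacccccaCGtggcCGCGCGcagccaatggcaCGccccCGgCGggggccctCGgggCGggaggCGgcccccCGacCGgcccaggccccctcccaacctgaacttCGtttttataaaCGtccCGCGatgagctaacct
HOXA13 held 40 CpG in these 250 bases, HOXA4 26, HOXD13 21 and HOXD4 4, beside a range of 0 to 40 over all 27 HOX entries. HOXA13 and HOXD13 act in the distal limb and the hindgut. HOXA4 and HOXD4 act in the hindbrain and the neck region. The gained regions are on GRCh37 and the promoters on GRCh38.p14, so no region was placed at a promoter or a gene, and each region is given by its cluster and position only.

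Gained regions were denser in the HOX clusters than in the surrounding DNA with each of the 3 drugs. Doxo had 48 gained regions in the 4 windows, 85.7% of the 56, beside 66.6% of all regions in the union. diMe-Doxo had 33, which is 58.9% beside a background of 52.7%, and Acla had 19, which is 33.9% beside 61.2%. Within the windows the density was 8.42 regions per 100 kb with Doxo, 5.79 with diMe-Doxo and 3.33 with Acla. In the 500 kb on each side it was 1.1, 0.45 and 0.4 per 100 kb. With Doxo the cluster density was thus 7.66 times that of the flanks (95% counting interval 4.98 to 11.8). The ratio was 12.9 with diMe-Doxo (7.04 to 24.3) and 8.33 with Acla (4.06 to 17.3). These intervals cover counting error only and treat neighbouring regions as separate. The flanks were sparser than their chromosomes (first to last listed region), so ratios to the chromosomes would be lower. With Doxo, diMe-Doxo and Acla the HOXA flanks had 0.7, 0.2 and 0.1 per 100 kb, beside 3.04, 2.45 and 2.64. The HOXC flanks with Doxo came closest, at 1.9 beside 1.91. Each window was denser than its chromosome, but HOXB had only 1.43 with diMe-Doxo and Acla, beside 1.08 and 1.32. The gained regions covered 49290 bp with Doxo, 38389 bp with diMe-Doxo and 23994 bp with Acla. That is 8.65%, 6.73% and 4.21% of the windows, beside 0.948%, 0.452% and 0.38% of the flanks.

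Pooled over the 4 clusters, the shares of regions listed for Doxo and for Acla were close to those of the pooled flanks. Among the 51 regions in the flanks, 44 (86.3%) were in the Doxo list, 18 (35.3%) in the diMe-Doxo list and 16 (31.4%) in the Acla list. Against the genome-wide background the pooled flanks thus also had a lower share for Acla and a higher share for Doxo. The HOXD flanks went the other way, with 53.8% of their 13 regions listed for Doxo and 69.2% for Acla, while the HOXD cluster had 81% and 28.6%. The number of regions tested by the authors inside and outside the clusters was not analysed here, so a higher density of gained regions cannot be told apart from a higher density of tested regions.

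**Figure D1:**
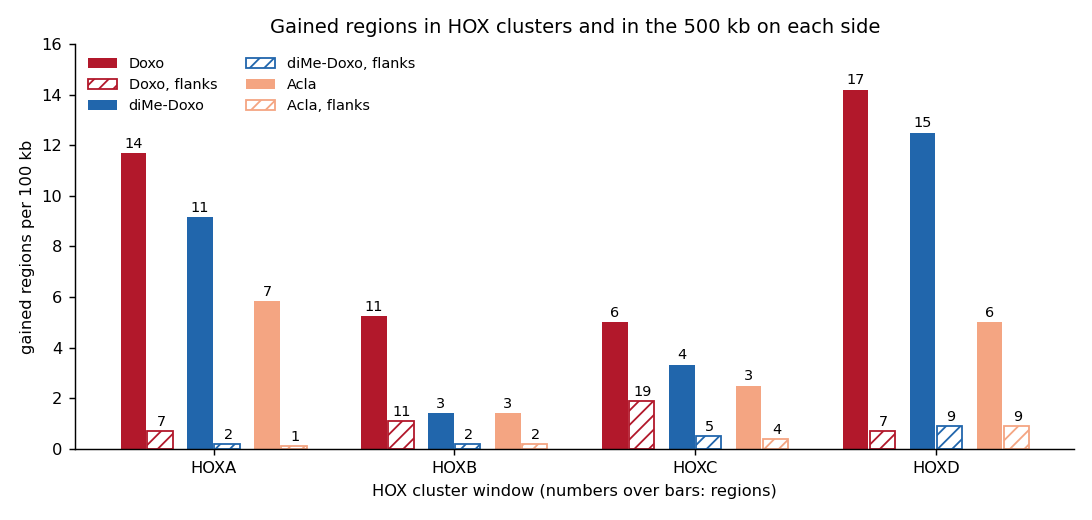
Gained regions per 100 kb (vertical axis) in each HOX cluster window (filled bars) and in the 500 kb on each side (hatched bars), by drug. Numbers over the bars are regions, from 19 for Doxo in the HOXC flanks, which are longer than the clusters, down to 1 for Acla in the HOXA flanks, and the filled bar is the higher of the pair in each of the 12 comparisons.

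HOXD held the most gained regions with Doxo and diMe-Doxo, and HOXA the most with Acla. HOXD had 17 with Doxo, 15 with diMe-Doxo and 6 with Acla, or 14.2, 12.5 and 5 per 100 kb, while its flanks had 7, 9 and 9 regions (0.7, 0.9 and 0.9 per 100 kb). By region midpoint, the first 60 kb of the window, on the side of HOXD13, held 11 of the 17 Doxo regions, 9 of the 15 diMe-Doxo regions and 4 of the 6 Acla regions. HOXA had 14, 11 and 7 regions (11.7, 9.17 and 5.83 per 100 kb) against 7, 2 and 1 in its flanks. HOXA regions were spread over the window, with 6 Doxo regions in the 60 kb on the side of HOXA2 and 8 in the 60 kb on the side of HOXA13.

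HOXB differed between drugs in the number of listed regions. All 11 HOXB regions were listed for Doxo (5.24 per 100 kb, flanks 1.1), and 3 for each of diMe-Doxo and Acla (1.43, flanks 0.2). The midpoint of each lay in the first 120 kb of the 210 kb window, on the side of HOXB1, and 9 of the 11 Doxo regions lay in the first 105 kb. The HOXB flanks showed the same order, with 11 Doxo, 2 diMe-Doxo and 2 Acla regions. Chromosome 17 as a whole had 2.61 Doxo, 1.08 diMe-Doxo and 1.32 Acla regions per 100 kb, so Doxo regions were also the most frequent there. HOXC had 6 regions with Doxo, the fewest of the 4 clusters, 4 with diMe-Doxo and 3 with Acla. Its Doxo density of 5 per 100 kb stood beside 1.9 in the flanks, and the counting interval of this ratio ran from 0.86 to 6.85. The intervals for diMe-Doxo and Acla at HOXB (0.818 to 85.5 for each) and for Acla at HOXC (0.916 to 36.9) each rested on 3 regions. Because they treat regions as separate, the intervals are no test of a cluster, whether or not they include 1. Of the 6 Doxo regions in HOXC, 5 lay in the last 60 kb, which is the side away from HOXC13.

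**Figure D2:**
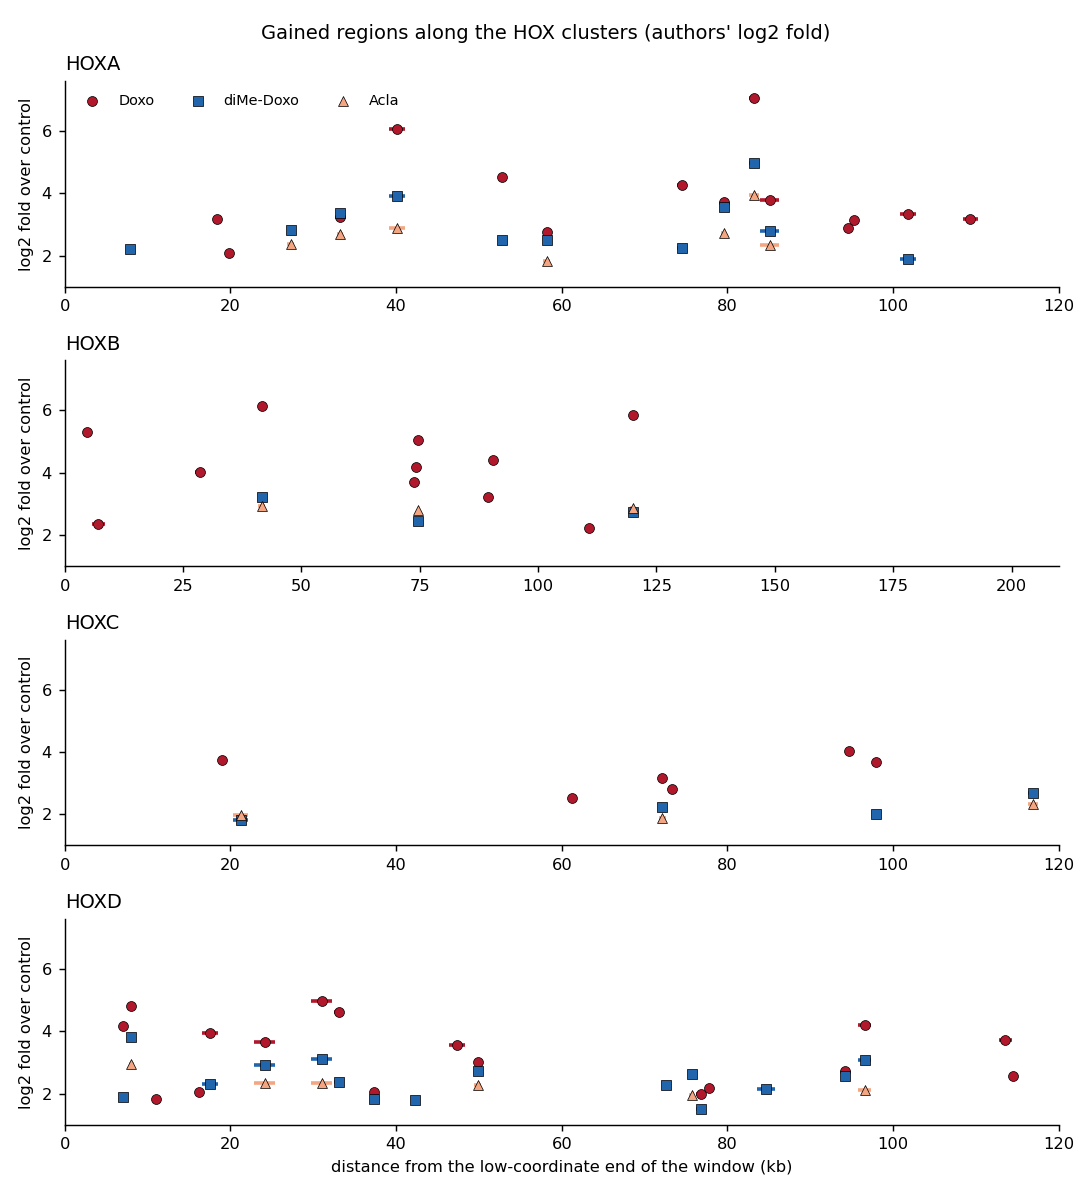
Position of each gained region along the 4 HOX windows (horizontal axis, kb from the low-coordinate end) against the authors' log2 fold over control (vertical axis), with marker shape and colour for the drug and bars for region width. Doxo folds reach 7.05 in HOXA and 6.14 in HOXB, and no region has its midpoint beyond 120 kb in the HOXB window.

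The region on chromosome 7 at 27212614-27213842 in HOXA led its cluster with each drug. Its normalised signal was 178.42 and 195.03 in the Doxo libraries and 1.44 and 1.39 in the controls, with a log2 fold of 7.05 (FDR 3.92e-10) in the authors' deposited table. With diMe-Doxo the signal was 70.06 and 68.97 against 2.41 and 2.03, and the authors' deposited table gives a log2 fold of 4.97 (FDR 1.01e-06). With Acla it was 39.23 and 43.04 against 2.85 and 2.44, with a log2 fold of 3.96 (FDR 0.000265) in the authors' deposited table. Every treated library was far above both controls, and the 2 libraries of each drug lay close together. Over the whole lists, both treated libraries were above both controls at 66689 of 66720 Doxo regions. They were so at all 52784 diMe-Doxo and all 61295 Acla regions, so that order alone is no added support for a region. Each control library held 1 read here, the lowest value in the lists, so the control values differ between lists only through the library factors. The authors called a peak here in both Doxo and both diMe-Doxo libraries, but in neither Acla library.

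The next region, chromosome 7 at 27213983-27216184, was the widest of HOXA at 2201 bp. It had 135.77 and 114.76 in the Doxo libraries and 1.44 and 16.64 in the controls, and the authors' deposited table gives a log2 fold of 3.79 (FDR 0.00114). The controls held 1 and 12 reads. Against the first control alone the Doxo log2 fold was 6.44, and against the second alone it was 2.91. The log2 fold in the authors' deposited table was 2.80 with diMe-Doxo (FDR 0.00764) and 2.35 with Acla (FDR 0.0224). On the side of HOXA2, the region at 27162825-27163628 was low with every drug, at 8.53 and 18.31 in the Doxo libraries against 1.44 and 1.39. With diMe-Doxo it had 30.79 and 15.17 against 2.41 and 2.03, and with Acla 19.43 and 14.60 against 2.85 and 2.44. Its groups did not overlap in any list, as at nearly all listed regions. The 2 Doxo libraries differed from each other more than at the leading region.

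In HOXB the region on chromosome 17 at 46640891-46642249 led with each drug. It had 145.72 and 154.89 in the Doxo libraries and 2.88 and 1.39 in the controls, with a log2 fold of 6.14 (FDR 8.3e-09) in the authors' deposited table. The diMe-Doxo libraries had 41.5 and 22.07 against 4.81 and 2.03, a log2 fold of 3.22 (FDR 0.00287) in the authors' deposited table. The Acla libraries had 25.03 and 37.66 against 5.7 and 2.44, a log2 fold of 2.94 (FDR 0.0053) in the authors' deposited table. Doxo libraries were the highest and the controls, with 2 reads and 1 read, were near the lowest value. The region at 46674460-46675006 had 46.2 and 47.88 with Doxo against 1.44 and 1.39, while diMe-Doxo had 16.96 and 7.36 against 2.41 and 2.03. The authors called a peak there in both Doxo libraries, but in no diMe-Doxo or Acla library.

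The region on chromosome 17 at 46605670-46608540 was the widest of the 56, at 2870 bp, and was in the Doxo list alone. Its signal was 92.41 and 121.1 in the Doxo libraries against 1.44 and 40.21 in the controls. The controls held 1 and 29 reads, and the authors called a peak in both control libraries. The authors' deposited table gives a log2 fold of 2.36 with an FDR of 0.077. Against the second control alone the log2 fold was 1.41, which is under the limit of 1.5 that all listed regions pass, and against the first alone it was 6.21.

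Doxo regions in HOXC were narrow, with a median width of 420 bp beside 806.5 bp over all HOX regions of the Doxo list. The lowest Doxo FDR belonged to a region of 313 bp on chromosome 12 at 54348811-54349124, with 30.57 and 25.35 in the Doxo libraries against 1.44 and 2.77, and a log2 fold of 3.73 (FDR 0.000878) in the authors' deposited table. The largest Doxo fold was at 54424520-54424912, with 17.77 and 28.16 against 1.44 and 1.39, a log2 fold of 4.02 in the authors' deposited table. The region at 54401717-54402527 was the one listed for all 3 drugs, with 31.99 and 44.36 for Doxo against 7.21 and 1.39. Its diMe-Doxo libraries had 41.94 and 24.37 against 12.03 and 2.03, and its Acla libraries 30.26 and 31.13 against 14.25 and 2.44. The first control library was the higher one in each list, and the groups did not overlap, as at nearly all listed regions. Near the high-coordinate edge, the region at 54446245-54447519 was listed for diMe-Doxo (35.7 and 31.27 against 2.41 and 8.1) and Acla (30.26 and 32.66 against 2.85 and 9.78). The authors' deposited table gives log2 folds of 2.67 and 2.32 there, the largest of HOXC for these drugs. The widest HOXC region, 1731 bp at 54350366-54352097, was listed for the same pair, with a peak called in both controls and log2 folds of 1.81 and 1.97 in the authors' deposited table.

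The strongest signal of all HOX regions lay in HOXD, on chromosome 2 at 176969687-176972322 (2635 bp). It had 506.81 and 540.02 in the Doxo libraries against 31.7 and 1.39 in the controls, and the authors' deposited table gives a log2 fold of 4.98 (FDR 0.000269). The diMe-Doxo libraries had 256.13 and 217.02 against 52.94 and 2.03, and the Acla libraries 165.88 and 161.01 against 62.69 and 2.44. Treated libraries agreed closely, while the controls held 22 and 1 reads although a peak was called in both. The Doxo log2 fold was 8.56 against the second control alone and 4.05 against the first alone. The log2 fold in the authors' deposited table was 3.11 with diMe-Doxo (FDR 0.0121) and 2.33 with Acla (FDR 0.0536). Against the first control alone the Acla log2 fold was 1.38, under the listing limit of 1.5.

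The control libraries lay closer together at the other named HOXD regions. The region at 177035720-177037379 had 137.19 and 149.26 with Doxo against 10.09 and 5.55, and a log2 fold of 4.20 (FDR 3.19e-06) in the authors' deposited table. It had 114.68 and 97.48 with diMe-Doxo against 16.84 and 8.1, and 54.54 and 73.4 with Acla against 19.95 and 9.78. The region at 176962904-176965363 had 179.84 and 177.42 with Doxo against 17.29 and 11.09, the controls holding 12 and 8 reads. Its diMe-Doxo libraries stood at 182.5 and 159.55 against 28.87 and 16.21, and its Acla libraries at 140.84 and 134.11 against 34.19 and 19.56. The authors' deposited table gives log2 folds of 3.65, 2.92 and 2.35 for the 3 drugs, with the cluster's lowest FDR for diMe-Doxo (7.64e-05) and Acla (0.0018). The region at 176947709-176948387, near the low-coordinate edge, had the cluster's largest log2 fold with diMe-Doxo (3.80) and Acla (2.96) in the authors' deposited table. The authors called a peak at this last region in 1 Doxo and 1 diMe-Doxo library, but in neither Acla library. In each of these regions every treated library was above both controls, as at nearly all listed regions.

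Over all HOX regions, folds were larger than the list median for Doxo and not for the other drugs. The median log2 fold in the authors' deposited table was 3.66 at the 48 Doxo regions and 2.95 over the whole Doxo list. It was 2.51 and 2.52 for diMe-Doxo, and 2.35 and 2.62 for Acla. An FDR of at most 0.05 was reached by 43 of 48 Doxo regions, beside 81.2% of the list, by 24 of 33 diMe-Doxo regions, beside 77.1%, and by 16 of 19 Acla regions, beside 82%.

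The untreated cells already held signal at some HOX regions, and the 2 control libraries often differed there. The authors called a peak in at least 1 control library at 15 of the 56 regions (26.8%, background 14.1%), and 7 of these were in HOXD. Both controls stood at 1 read at 10 regions (17.9%, background 28.8%), none of them in HOXD. The control libraries were at least 10-fold apart at 13 regions (23.2%, background 7.94%), of which 7 were in HOXD, 4 in HOXA, 2 in HOXB and 0 in HOXC. Summed over the 21 HOXD regions the controls held 214 and 75 reads, and over the 11 HOXB regions 16 and 79, so the order of the libraries was opposite in these clusters. At 6 of the 56 regions (10.7%, background 4.3%) a peak had been called in a control library that holds 1 read in the lists.

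A log2 fold of at least 1.5 over each control library taken alone was present at 43 of 48 Doxo regions (background 89.1%). It was present at 23 of 33 diMe-Doxo regions (background 78.3%) and 14 of 19 Acla regions (background 81.7%). In HOXD it was present at 8 of 15 diMe-Doxo regions. The part of the control reads in the HOX folds was not tested.

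**Figure D3:**
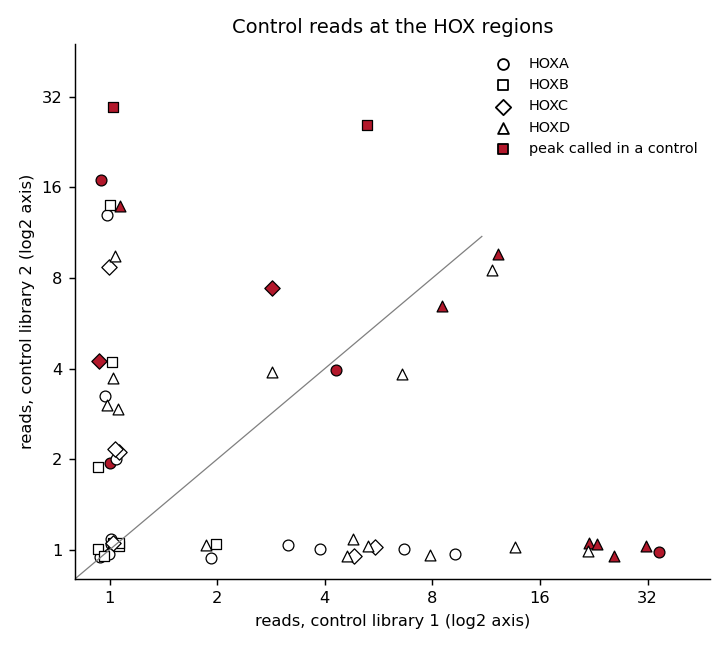
Reads in control library 1 (horizontal axis) and control library 2 (vertical axis) at the 56 HOX regions on log2 axes, with points spread slightly at random so that equal values can be seen, marker shape for the cluster and filled markers where a control peak was called. Many points lie along the edges, where 1 of the libraries holds 1 read and the other up to 32.

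Doxo and diMe-Doxo, which share dose and time, differed at most of the HOX regions they had in common. Reads recovered from the deposited signal were compared between drugs in 3 pairs by the quasi-likelihood test of edgeR, adjusted by the Benjamini-Hochberg method over all regions shared by 2 lists. A region missing from either list of a pair was not tested and could not be called in either direction. Of 25 shared HOX regions, 18 were higher with Doxo (background 28.9% of 33140) and 0 were lower (background 2.72%) at an adjusted p of at most 0.05. At an unadjusted p under 0.05, 0 were lower, a limit for which the background share was not analysed here. DESeq2 called 15 higher (background 19.6%) and 0 lower (background 4.57%). The higher regions were 6 of 9 in HOXA, 3 of 3 in HOXB, 2 of 2 in HOXC and 7 of 11 in HOXD. At these 18 regions both Doxo libraries were above both diMe-Doxo libraries on the common scale. The call rests on the same libraries, so this order adds no support, and its share over all shared regions was not analysed here. The median log2 difference of the 25 was 1.51, beside 0.28 over all shared regions. With TMM factors, which shift the median of all regions to -0.05, 17 were higher (background 23.6%) and 0 lower (background 10.6%). The HOX median was then 1.18. In the flanks 6 of 13 shared regions were higher with Doxo and 0 lower, with a median of 0.39.

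The lowest adjusted p was at the leading HOXB region, chromosome 17 at 46640891-46642249. On the common scale it had 145.7 and 154.9 in the Doxo libraries and 26.6 and 14.1 in the diMe-Doxo libraries. The log2 difference was 2.88 (SE 0.24, edgeR adjusted p = 7.38e-31), and the libraries did not overlap. The largest difference, 3.10 (SE 0.29, edgeR adjusted p = 2.08e-24), was at 46719513-46720450, also in HOXB, with 69.7 and 92.2 against 10.6 and 8.24. This region was named after its values were seen, and the authors called no peak in its diMe-Doxo libraries. At the HOXA region at 27212614-27213842 the difference was 2.07 (SE 0.22), and at the HOXD region at 176969687-176972322 it was 1.79 (SE 0.20).

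At the 7 shared regions that did not pass, 3 in HOXA and 4 in HOXD, log2 differences ran from -0.13 to 0.46. The lowest and highest limits of their 95% intervals were -0.97 and 0.94, so these values do not show that the drugs act alike there. With the authors' factors 1 of the 25 differences was below 0, that of the HOXA region at 27162825-27163628, and 6 were below 0 with TMM factors and with DESeq2. The HOXA region had 8.53 and 18.3 in the Doxo libraries and 19.7 and 9.71 in the diMe-Doxo libraries, which overlap. Its difference was -0.13 (SE 0.43, edgeR adjusted p = 0.878).

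Pairs with Acla set 10 µM beside 20 µM, so dose and compound cannot be told apart in them. Of 15 HOX regions listed for both Doxo and Acla, edgeR called 11 higher with Doxo (background 26.6% of 32787) and 0 lower (background 11.3%). At an unadjusted p under 0.05, 14 were higher and 0 lower, with no background share analysed at that limit. DESeq2 called 11 higher (background 21.2%) and 0 lower (background 10.4%). The median log2 difference was 1.83, beside 0.12 over all shared regions, and with TMM factors it was 1.62 beside -0.09. The lowest adjusted p was at the HOXD region at 176969687-176972322, with 506.8 and 540 in the Doxo libraries and 88.8 and 86.2 in the Acla libraries. Its log2 difference was 2.58 (SE 0.15, edgeR adjusted p = 6.5e-63). All 3 shared HOXB regions were among those called, with differences from 2.24 to 3.16.

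Between diMe-Doxo and Acla, whose doses also differ, edgeR called 4 of 19 shared HOX regions higher with diMe-Doxo (background 0.846% of 43402) and 0 lower (background 5.56%). At an unadjusted p under 0.05, 9 were higher and 0 lower, again with no background share analysed. DESeq2 called 6 higher (background 2.39%) and 0 lower (background 2.34%). The median log2 difference was 0.57, beside -0.15 over all shared regions. The 4 were 2 regions each of HOXA and HOXD, with differences from 0.79 to 1.01. The lowest adjusted p was at the HOXD region at 177035720-177037379, with 73.4 and 62.4 in the diMe-Doxo libraries and 29.2 and 39.3 in the Acla libraries, a difference of 0.99 (SE 0.25, edgeR adjusted p = 0.00515). TMM factors, which move the median of all regions to 0.00, gave 10 higher regions (background 6.64%). Without 1 of the 4 libraries in turn the count was 0 without either diMe-Doxo library or without the first Acla library, and 2 without the second. On the Acla side the region with the lowest p was in HOXB at 46674460-46675006, with 10.9 and 4.71 in the diMe-Doxo libraries and 10.2 and 9.67 in the Acla libraries. The difference there was -0.35 (SE 0.42, edgeR adjusted p = 0.696), and the libraries overlapped.

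**Figure D4:**
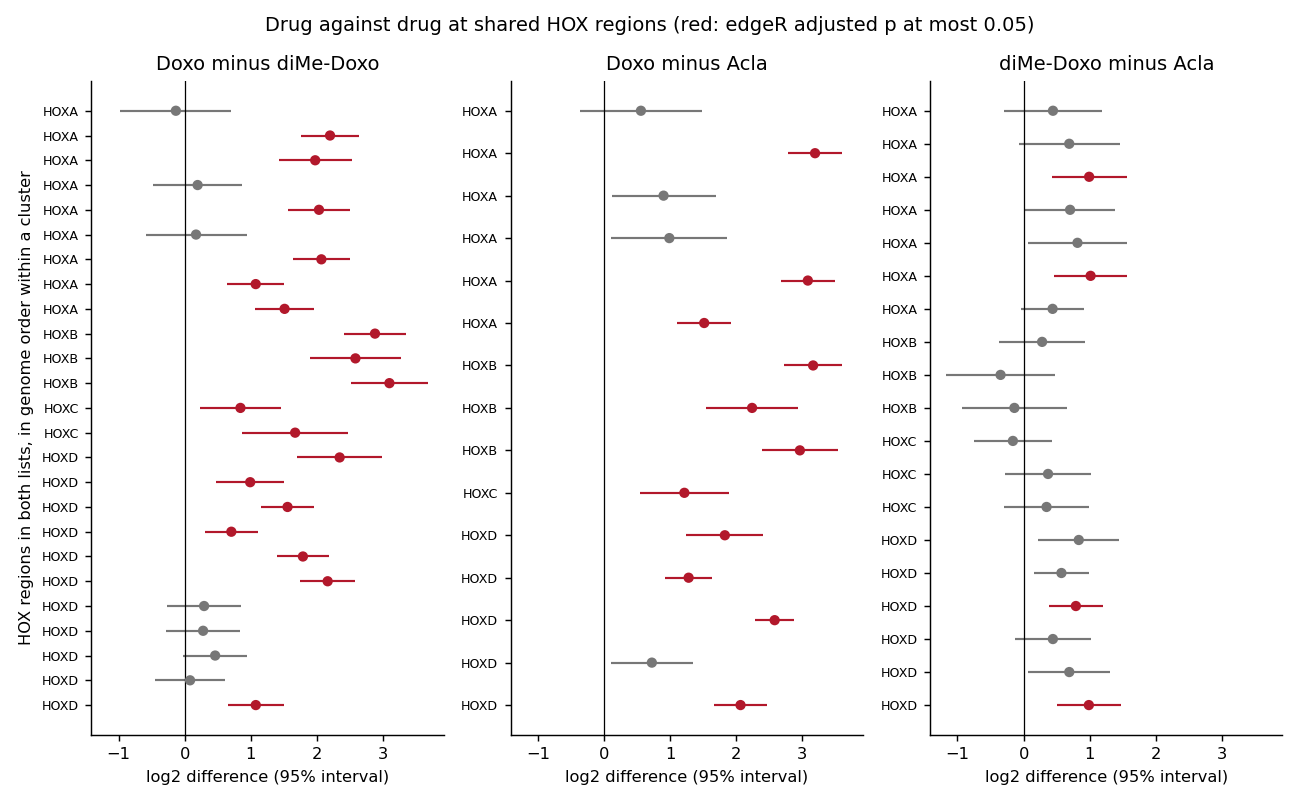
Log2 difference in signal between drugs (horizontal axis, with 95% interval) at each HOX region in both lists (vertical axis, by cluster), red where the edgeR adjusted p was at most 0.05. The points for Doxo against diMe-Doxo lie from -0.13 to 3.10, and 18 of 25 are red.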

How the data were processed

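The submitters' processing notes name GRCh37 and DiffBind for these ATAC-seq libraries. For the aligner, the peak caller and their versions, the sources used here give no name. Because the deposited lists have no header, the meaning of their columns was worked out from the values. The authors' log2 group means and log2 fold, their p-value and FDR, and a normalised signal per library were used as deposited, with the authors' mark for a peak called in each library (an other, non-numeric value). All listed regions have a log2 fold of at least 1.5 and a p of at most 0.05. Lost regions were not analysed here. Coordinates were taken over unchanged, and whether starts count from 0 or 1 is not stated.

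Reads were recovered by dividing a library's signal by the value of 1 read, which gave whole numbers (within 0.1 reads) for 100% of values. Reads in lists ranged from 3534855 to 7266289 per treated library and from 120492 to 253175 per control library. A control read was worth 1.44 and 1.39 in the Doxo list, 2.41 and 2.03 in the diMe-Doxo list and 2.85 and 2.44 in the Acla list. The lowest control value is 1 read and may stand for 0. The full depth is unknown. For drug pairs, the library factors of 2 lists were put on the scale of their shared controls.

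HOX regions were compared with the 500 kb on each side, without a test, because regions are not replicates. Density ratios carry exact Clopper-Pearson intervals, which treat regions as separate and are not a test. Drug pairs were tested with edgeR's quasi-likelihood test on recovered reads, and DESeq2, limma, TMM factors and other settings were alternatives. The edgeR script was first tested on simulated data. Named regions are, for each cluster, those with the lowest FDR and the largest fold for each drug, the widest and the most shared with the highest signal, and, for each drug pair, the lowest adjusted p in each direction. The members and lists were chosen with earlier results of these data known. Counts of HOX cofactor and regulator genes and a check of K562 marker genes were not made, because no annotation of GRCh37 was used here. Tests ran in R 4.3.3 with edgeR 4.0.16, DESeq2 1.42.0 and limma 3.58.1. Tables and figures were made in Python 3.11.15 with pandas 2.3.3, numpy 2.4.6, matplotlib 3.10.9 and scipy 1.17.1.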

Additional observations from a re-analysis of the deposited data

How the results depend on the processing

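No paired analysis was possible because the labels give the libraries no replicate numbers. The library limits are that 2 libraries stand for each group and that many control values are 1 read. The count of Doxo regions in the HOX clusters ranged from 32 to 48 over the alternatives run. Stricter limits (authors' FDR up to 0.01, log2 fold 2 or more) by construction keep fewer regions, 15 for diMe-Doxo and 6 for Acla. The cluster to flank density ratio ranged from 5.22 to 10.5 for Doxo, 7.35 to 15.04 for diMe-Doxo and 4.37 to 16.7 for Acla, the lowest each time with 1 Mb on each side. The number of HOX regions higher with Doxo ranged from 15 to 18 against diMe-Doxo and from 11 to 14 against Acla. Regions higher with diMe-Doxo than with Acla numbered 10 with TMM factors and 0 to 2 when 1 library was left out, and the cause was not tested. No HOX region was called lower in the first drug of any pair under the 12 settings run for that pair. Only regions in both lists could be called. The Doxo list held 25 of the 33 diMe-Doxo and 15 of the 19 Acla HOX regions, and the rest were not tested against Doxo.

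Over all shared regions, TMM factors changed the calls from 9583 higher and 900 lower to 7831 and 3508 for Doxo against diMe-Doxo. They changed them from 8734 and 3700 to 7710 and 6144 for Doxo against Acla, and from 367 and 2415 to 2884 and 3612 for diMe-Doxo against Acla. The Doxo against diMe-Doxo difference at the HOXA region from 27162825 turned from -0.13 to 0.46 without the first diMe-Doxo library and to 0.31 without the first Doxo library, and leaving out libraries spanned -0.79 to 0.46. The diMe-Doxo against Acla difference at the HOXB region from 46674460 turned from -0.35 to 0.13 without the second diMe-Doxo library, the range over left-out libraries being -1.07 to 0.13. None of these 3 reversals passed the test in either form. With DESeq2 the call for Doxo over diMe-Doxo was lost at 2 named HOXD regions. These were the regions from 176947709 (0.65, DESeq2 adjusted p = 0.0969) and from 176962904 (0.36, DESeq2 adjusted p = 0.107). At the HOXC region from 54401717 the call for Doxo over diMe-Doxo was lost with TMM factors (0.52, edgeR adjusted p = 0.153), with DESeq2 (0.51, adjusted p = 0.364), without the second diMe-Doxo library (0.51) and without the second Doxo library (0.59). The alternatives were chosen with earlier results of these data known, and leaving out libraries for the region counts, density ratios and single regions, scaling from 1 control library and the FDR limit of 0.05 were added after seeing the data.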
